A study of Homo sapiens with 6 samples.

Results

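The genes described here build and run the DNA replication machinery. They are 40 of the 25277 genes of the deposited expression table, taken by symbol from a list of S-phase genes: the MCM2-7 helicase with CDC45 and the GINS subunits, origin licensing factors, replicative polymerases, the PCNA clamp and its RFC loader, nucleotide synthesis enzymes, and G1/S regulators. All 40 had a mean of at least 1 FPKM (fragments per kilobase of transcript, scaled to the mapped fragments of the library) and entered every test.

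RNA-seq had been made from Jeko and Rec-1, established human cell lines. Their tumour type, mantle cell lymphoma, is a B cell cancer that as a rule overproduces cyclin D1 (CCND1) from a chromosome translocation. Each line was a stable line with a tet-on CRISPR/Cas9 vector. It gave 1 control library from cells with the empty vector and 2 libraries from cells carrying sgRNA 1 or sgRNA 2 against NR4A1, an orphan nuclear receptor of the immediate early response. All 6 libraries, controls included, came from total RNA of cells exposed to doxycycline for 48 h. Whether the lines were clones or pools is not given in the sources used here, and p-values measure only spread among these libraries. For contrasts within or between the lines that is the spread between the 2 sgRNA libraries of a line, and for the contrast over both lines together it also holds the difference in response between the lines.

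The labels had a limit that touches every comparison with Rec-1. CCND1 stood at 442 to 815 FPKM in the 3 Jeko libraries and at 495 FPKM in the library labelled Rec-1 control, but at 0.696 and 0.592 FPKM in the labelled Rec-1 sgRNA libraries 1 and 2. The other 7 of 8 B cell and mantle cell lymphoma markers were at 1 FPKM or more in all 6 libraries. The summed level of 4 T cell genes was 2.11 to 5.44 FPKM in the Jeko libraries and the library labelled Rec-1 control, and 102 and 120 FPKM in the 2 labelled Rec-1 sgRNA libraries, where CD3D was 66.3 and 95.3 FPKM and CD2 was 0.0288 and 0 FPKM. The summed level of 4 myeloid genes was 1.44 to 2.19 FPKM against 12.9 and 15.0 FPKM, nearly all of it CD68, and the erythroid genes HBA1 and HBB were at 0 in all 6. NR4A1 itself was 5.99 FPKM in the Jeko control, 3.89 and 4.44 with sgRNA 1 and 2, 11.6 in the labelled Rec-1 control and 27.4 and 12.7 with sgRNA 1 and 2. A Rec-1 contrast therefore sets 2 libraries without CCND1 against 1 library with it, and the part of a line difference in that contrast cannot be told apart from that of the sgRNA. Sequencing depth cannot be read from FPKM and is unknown.

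Replication starts at origins bound by the origin recognition complex (ORC), where CDC6 and CDT1 load the MCM2-7 ring in G1 phase. In S phase CDC45 and GINS join MCM2-7 to form the active helicase, DNA polymerase alpha with primase lays down primers, and polymerases delta and epsilon extend them on PCNA, which RFC loads. Most of these genes are transcribed at the G1/S transition under E2F factors, which are released from the retinoblastoma proteins when cyclin D and cyclin E kinases act. In mantle cell lymphoma cyclin D1 feeds this step.

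Because the genes share that control, their promoters are shown first. Promoter windows from RefSeq (GRCh38.p14), from 250 bases before to 50 bases after each transcription start, were found for 36 of the 40 genes. They were searched on both strands for 4 E2F-type words, TTTCCCGC, TTTCGCGC, TTTGCCGC and TTTGGCGC, which may overlap each other. At least 1 of them lay in the window of 20 of 36 genes (55.6%), against 3.99% of the 27305 genes with a window 12 of 34 replication genes outside the 40 (35.3%) and 3 of 24 mitosis genes (12.5%). The word CCAAT, searched the same way, was in 58.3% of the 36 genes, 61.8% of the other replication genes, 39.7% of all genes and 79.2% of the mitosis genes. The stretches below hold 1 or more of the words on either strand, in capitals, and are read 5′ to 3′ along the gene.
E2F1: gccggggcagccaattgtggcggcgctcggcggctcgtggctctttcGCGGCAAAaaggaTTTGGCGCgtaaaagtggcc
MCM7: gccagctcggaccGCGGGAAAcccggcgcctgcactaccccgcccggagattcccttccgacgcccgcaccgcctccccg
MCM3: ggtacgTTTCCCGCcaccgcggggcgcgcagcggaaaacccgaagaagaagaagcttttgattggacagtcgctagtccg
MCM6: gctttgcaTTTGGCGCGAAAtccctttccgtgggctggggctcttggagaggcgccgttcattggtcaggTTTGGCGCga
GINS2: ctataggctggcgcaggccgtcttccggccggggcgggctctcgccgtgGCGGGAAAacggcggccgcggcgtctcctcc
POLA1: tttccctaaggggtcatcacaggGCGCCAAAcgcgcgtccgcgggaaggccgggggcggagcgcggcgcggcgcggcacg
TYMS: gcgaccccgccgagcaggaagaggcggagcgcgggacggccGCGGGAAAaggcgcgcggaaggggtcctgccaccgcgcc
PCNA: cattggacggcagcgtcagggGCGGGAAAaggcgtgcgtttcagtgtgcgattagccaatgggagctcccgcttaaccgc
The E2F1 stretch is chr20:33686386-33686465 on the minus strand, positions -80 to -1. The MCM7 stretch is chr7:100101518-100101597 on the minus strand, positions -200 to -121. The MCM3 stretch is chr6:52284843-52284922 on the minus strand, positions -180 to -101. The MCM6 stretch is chr2:135876524-135876603 on the minus strand, positions -160 to -81. The GINS2 stretch is chr16:85688955-85689034 on the minus strand, positions -80 to -1. The POLA1 stretch is chrX:24693758-24693837 on the plus strand, positions -160 to -81. The TYMS stretch is chr18:657573-657652 on the plus strand, positions -80 to -1. The PCNA stretch is chr20:5126623-5126702 on the minus strand, positions -80 to -1. MCM6 carried 3 words in this stretch, of which 2 overlap.

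For 4 genes whose levels are described further down, the window held none of the 4 words. Their 80 bases before the start are given for comparison, and say only that these letters are not there.
CDC45: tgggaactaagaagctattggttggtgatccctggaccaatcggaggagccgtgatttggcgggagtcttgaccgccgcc
RFC2: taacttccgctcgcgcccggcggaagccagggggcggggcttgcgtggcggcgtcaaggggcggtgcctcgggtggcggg
RFC1: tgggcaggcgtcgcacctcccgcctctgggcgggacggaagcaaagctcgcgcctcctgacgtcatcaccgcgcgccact
CCNE1: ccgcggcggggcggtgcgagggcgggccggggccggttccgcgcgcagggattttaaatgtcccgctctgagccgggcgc
The CDC45 stretch is chr22:19479840-19479919 on the plus strand, positions -80 to -1. The RFC2 stretch is chr7:74254400-74254479 on the minus strand, positions -80 to -1. The RFC1 stretch is chr4:39366363-39366442 on the minus strand, positions -80 to -1. The CCNE1 stretch is chr19:29811911-29811990 on the plus strand, positions -80 to -1.

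The replication genes made up less of the protein-coding RNA in both labelled Rec-1 sgRNA libraries than in any other library. Their summed FPKM was 0.474% of all protein-coding FPKM in the Jeko control, 0.500% with sgRNA 1 and 0.352% with sgRNA 2. It was 0.367% in the library labelled Rec-1 control, and 0.196% and 0.235% with sgRNA 1 and 2. The 2 labelled Rec-1 sgRNA libraries were the lowest, and the labelled Rec-1 control lay within the range of the Jeko libraries. For 30 mitosis genes, which act later in the cell cycle, the share was 0.225%, 0.268%, 0.220%, 0.212%, 0.220% and 0.225% in the same order. The labelled Rec-1 sgRNA libraries thus lay within the range of the others. This sum hides opposite differences: in labelled Rec-1, BUB1 was at 137, 38.8 and 42.2 FPKM and UBE2C at 94.1, 182 and 223 FPKM. By gene, 20 of the 30 were lower in the labelled Rec-1 than in the Jeko sgRNA mean and 10 were higher (51.7% and 47.9% of all genes). In bulk RNA, fewer cells in S phase and less RNA per cell cannot be told apart.

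**Figure D1:**
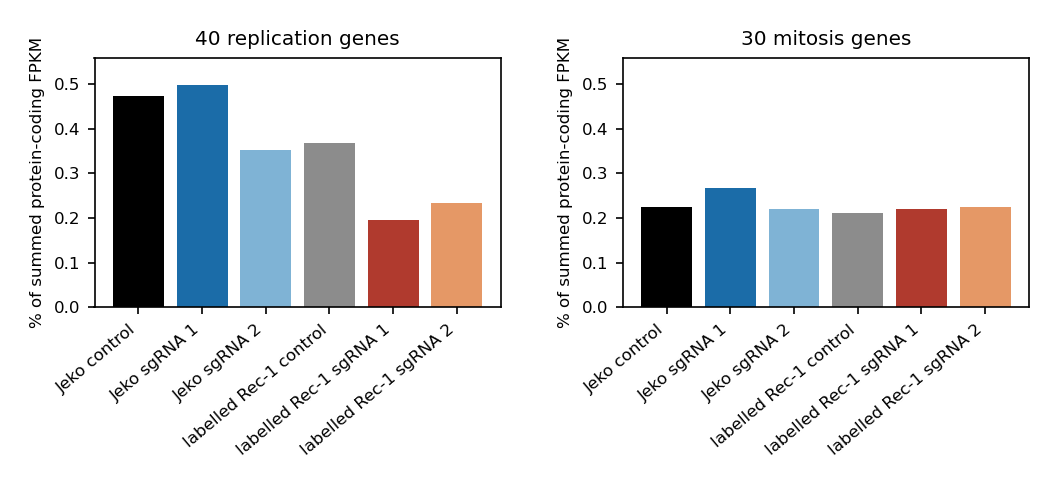
Summed FPKM of the 40 replication genes and of 30 mitosis genes as a percentage of all protein-coding FPKM, 1 bar per library and no error bars. The replication share is 0.196% and 0.235% in the 2 labelled Rec-1 sgRNA libraries and 0.352% to 0.500% in the other 4, while the mitosis share stays between 0.212% and 0.268%.

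PCNA was the highest and MCM7 the next of the 40 in all 6 libraries by FPKM, a scale that corrects for transcript length. The median level of the 40 was 63.7, 53.1 and 44.5 FPKM in the Jeko control, sgRNA 1 and sgRNA 2, and 47.3, 21.3 and 25.8 FPKM in the labelled Rec-1 libraries in that order. CLSPN, CCNE1, CCNE2 and GINS4 were at the low end, at 10.4 FPKM or less in every library.

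**Figure D2:**
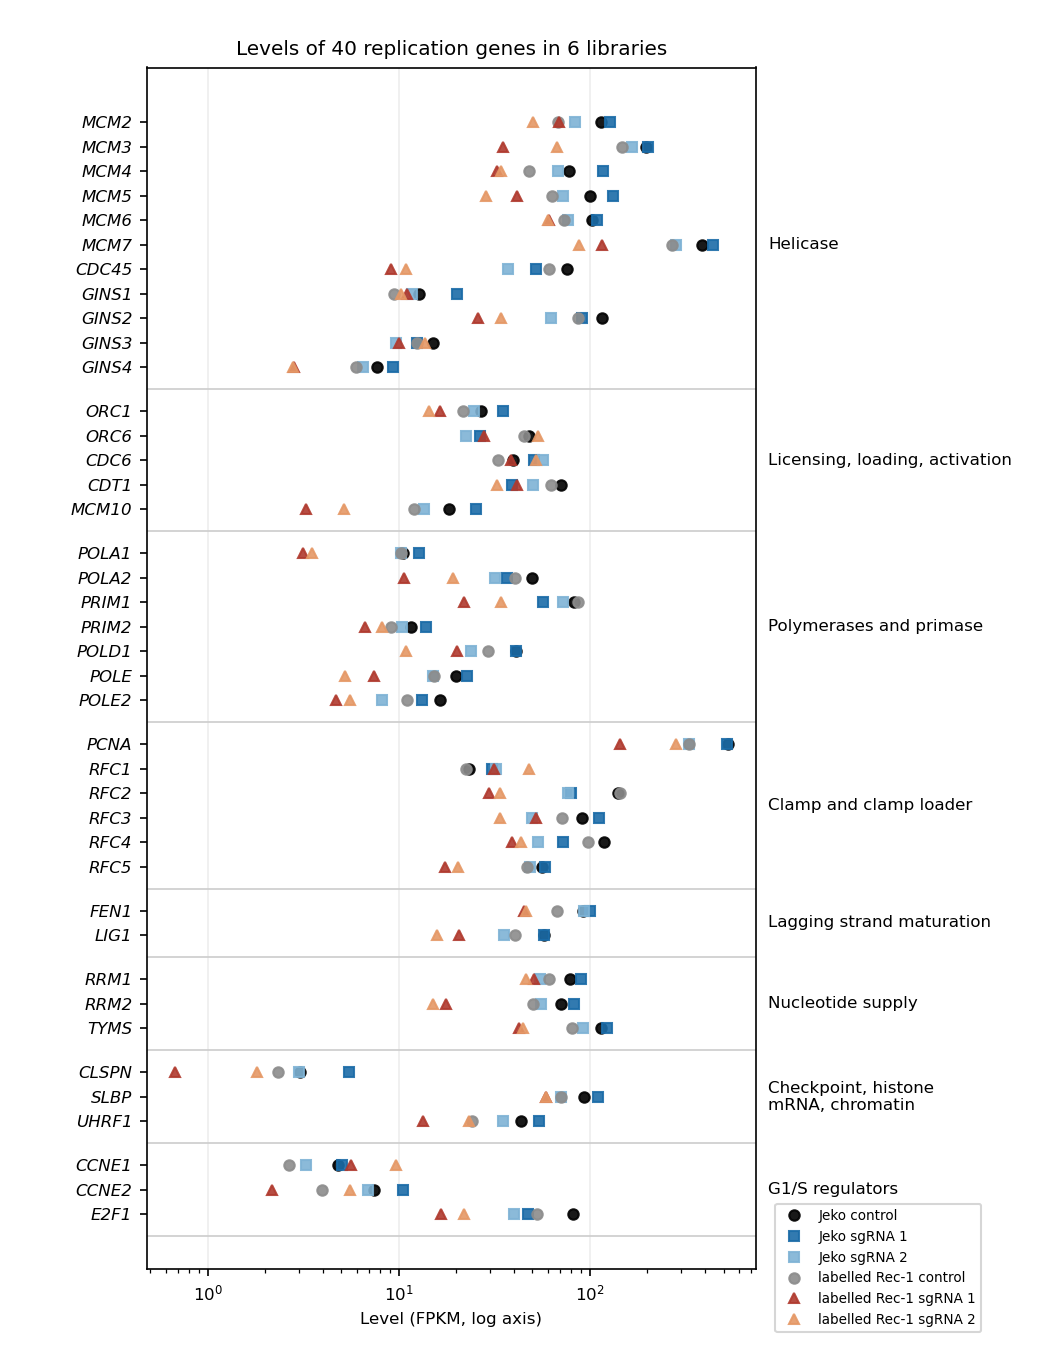
FPKM of each of the 40 genes in each of the 6 libraries on a log axis, 1 point per library. PCNA and MCM7 lie at the right, and for most genes the 2 points of the labelled Rec-1 sgRNA libraries lie to the left of the others.

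Jeko and Rec-1 were compared most directly between their sgRNA libraries, 2 against 2, which leaves out both controls. In this contrast 15 of the 40 genes were lower in the labelled Rec-1 libraries and 0 were higher (limma on log2(FPKM + 1), Benjamini-Hochberg adjusted p under 0.05). Over all 11400 genes tested, 13.0% were called lower and 12.8% higher, 25.9% in all. The median log2 difference was -1.11 for the 40 genes and -0.03 for all genes. On the level scale, 33 of the 40 had all 3 Jeko libraries above both labelled Rec-1 sgRNA libraries (31.0% of all genes), and only CCNE1 had the reverse order (28.5%). The 15 calls need all 4 sgRNA libraries: without Jeko sgRNA 1, labelled Rec-1 sgRNA 1 or labelled Rec-1 sgRNA 2 the count was 0, and without Jeko sgRNA 2 it was 1, each with 1 residual degree of freedom, while the median stayed between -1.32 and -0.91. With no filter on low values 7 calls were left, without MCM3, MCM7, MCM10, GINS4 and E2F1 among others, and a line contrast over all 6 libraries gave 0.

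The helicase held the most calls, 6 of its 11 genes. CDC45, which activates the MCM ring (GRCh37 chr22:19466980-19508135, plus strand), was at 75.9 FPKM in the Jeko control, 52.1 and 37.1 with sgRNA 1 and 2, 61.2 in the labelled Rec-1 control, and 9.04 and 10.9 with sgRNA 1 and 2. The 2 labelled Rec-1 sgRNA libraries stood far below the other 4. Its log2 difference between the lines' sgRNA libraries was -2.04 (SE 0.25, adjusted p = 0.0121), the most negative of the 40.

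MCM7, a ring subunit (chr7:99689856-99699563, minus strand), was at 386, 441 and 282 FPKM in the Jeko control, sgRNA 1 and sgRNA 2, and at 268, 115 and 88.1 FPKM in the labelled Rec-1 libraries. MCM3, another ring subunit, was at 196, 202 and 167 FPKM in Jeko and at 147, 35.2 and 66.8 FPKM in labelled Rec-1. For both genes the labelled Rec-1 control was the nearest to Jeko, and the sgRNA groups did not overlap. The log2 difference was -1.80 (SE 0.31, adjusted p = 0.0256) for MCM7 and -1.90 (SE 0.37, adjusted p = 0.0335) for MCM3. MCM4 was lower by 1.39 (adjusted p = 0.0465), while MCM5 at -1.48 (adjusted p = 0.0630), MCM2 at -0.80 (adjusted p = 0.133) and MCM6 at -0.59 (adjusted p = 0.151) did not pass. The 6 ring subunits are assembled in equal numbers, yet their transcript levels differed: within a library the highest was 3.10 to 5.62 times the lowest. Their summed level was 977, 1128 and 748 FPKM in the Jeko control, sgRNA 1 and sgRNA 2, and 668, 354 and 328 FPKM in the labelled Rec-1 libraries.

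The 4 GINS subunits, which also form a complex of equal parts, differed among themselves. GINS2 was at 116, 90.7 and 62.2 FPKM in the Jeko control, sgRNA 1 and sgRNA 2, and at 86.8, 26.1 and 34.2 FPKM in labelled Rec-1, with a log2 difference between sgRNA libraries of -1.30 (SE 0.28, adjusted p = 0.0416). GINS4 was lower by -1.21 (adjusted p = 0.0285). GINS3 was level: 15.1, 12.4 and 9.69 FPKM in Jeko and 12.4, 9.96 and 13.6 FPKM in labelled Rec-1, with overlapping groups and a log2 difference of 0.08 (adjusted p = 0.825). GINS1 was at -0.49 (adjusted p = 0.292).

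Of the 5 licensing and initiation genes only MCM10, a scaffold that helps start the helicase, was called. It was at 18.3, 25.3 and 13.5 FPKM in the Jeko control, sgRNA 1 and sgRNA 2, and at 11.9, 3.28 and 5.13 FPKM in labelled Rec-1. Both labelled Rec-1 sgRNA libraries were below every other library, and the log2 difference was -1.93 (SE 0.38, adjusted p = 0.0345). ORC6, an ORC subunit, had the other direction on the level scale: 48.1, 26.7 and 22.5 FPKM in Jeko and 45.3, 27.8 and 53.6 FPKM in labelled Rec-1. The controls of both lines were high and the sgRNA groups differed by 0.64 (adjusted p = 0.265). CDC6 (-0.25, adjusted p = 0.448) and CDT1 (-0.26, adjusted p = 0.460), the loaders of MCM2-7, and ORC1 (-0.90, adjusted p = 0.0648) did not pass.

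Among 7 polymerase and primase genes, POLA1 and POLE were called. POLA1, the catalytic subunit of polymerase alpha (chrX:24711990-25015103, plus strand), was at 10.4, 12.7 and 10.3 FPKM in the Jeko control, sgRNA 1 and sgRNA 2, and at 10.2, 3.13 and 3.53 FPKM in labelled Rec-1. The Jeko libraries and the labelled Rec-1 control were nearly level and both labelled Rec-1 sgRNA libraries were lower. The log2 difference between the sgRNA libraries was -1.52 (SE 0.18, adjusted p = 0.0117). POLE, the catalytic subunit of polymerase epsilon, was lower by 1.43 (SE 0.30, adjusted p = 0.0379). The other polymerase and primase genes, POLA2, PRIM1, PRIM2, POLD1 and POLE2, were all lower in the labelled Rec-1 sgRNA libraries, by -1.21 to -0.63, without passing the test.

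In the clamp and its loader, RFC2 and RFC5 were called lower in the labelled Rec-1 sgRNA libraries. RFC2 (chr7:73645829-73668788, minus strand) was at 140, 79.2 and 76.7 FPKM in the Jeko control, sgRNA 1 and sgRNA 2, and at 144, 29.7 and 33.7 FPKM in labelled Rec-1. Both controls were high, the Jeko sgRNA libraries intermediate and the labelled Rec-1 sgRNA libraries lowest. The log2 difference between the sgRNA libraries was -1.27 (SE 0.18, adjusted p = 0.0160). RFC5 was lower by 1.46 (SE 0.20, adjusted p = 0.0155).

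PCNA, the sliding clamp, was at 530, 522 and 329 FPKM in Jeko and at 328, 144 and 283 FPKM in labelled Rec-1. The labelled Rec-1 sgRNA libraries were both below Jeko but differed from each other, and the log2 difference of -1.03 (SE 0.44) did not pass (adjusted p = 0.160). RFC1, the large subunit of the loader, was at 23.1, 30.7 and 32.0 FPKM in the Jeko control, sgRNA 1 and sgRNA 2, and at 22.4, 31.6 and 47.9 FPKM in labelled Rec-1. It was low in both controls and higher in all 4 sgRNA libraries, so that the 5 loader subunits did not share 1 pattern. Accordingly the highest loader subunit was RFC2 in both controls but RFC1 in the library labelled Rec-1 sgRNA 2. The RFC1 transcript is 4870 nt long, and those of RFC2, RFC3, RFC4 and RFC5 are 1365 to 2306 nt. Differences in Jeko moved with transcript length, as described further down.

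RRM2, the small subunit of ribonucleotide reductase (chr2:10260825-10351851, plus strand), was at 70.3, 82.6 and 55.1 FPKM in the Jeko control, sgRNA 1 and sgRNA 2, and at 50.1, 17.7 and 15.1 FPKM in labelled Rec-1. The labelled Rec-1 control lay close to Jeko and both labelled Rec-1 sgRNA libraries far below, with a log2 difference of -1.98 (SE 0.27, adjusted p = 0.0154). RRM1, the large subunit, was at 79.0, 89.4 and 55.0 FPKM in Jeko and at 60.8, 51.0 and 46.2 FPKM in labelled Rec-1, and its difference of -0.52 did not pass (adjusted p = 0.255). TYMS, which makes thymidylate, was lower by 1.27 (SE 0.22, adjusted p = 0.0262). The flap endonuclease FEN1 was lower by 1.06 (SE 0.17, adjusted p = 0.0216), and the ligase LIG1 was just outside the threshold at -1.27 (adjusted p = 0.0549).

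The checkpoint mediator CLSPN, the histone mRNA binding protein SLBP and the methylation reader UHRF1 were lower by -1.23, -0.58 and -1.26 and none passed. Of the G1/S regulators, E2F1, which activates most of these genes (chr20:32263283-32274191, minus strand), was at 81.7, 47.5 and 40.2 FPKM in the Jeko control, sgRNA 1 and sgRNA 2, and at 52.6, 16.6 and 22.0 FPKM in labelled Rec-1. Within each line the control was the highest library. The difference between the sgRNA libraries was -1.15 (SE 0.23, adjusted p = 0.0343). CCNE1, a cyclin E, was at 4.79, 5.03 and 3.26 FPKM in Jeko and at 2.64, 5.62 and 9.68 FPKM in labelled Rec-1. It was the 1 gene whose labelled Rec-1 sgRNA libraries stood above all 3 Jeko libraries, though at 0.73 (SE 0.33) it did not pass (adjusted p = 0.178).

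**Figure D3:**
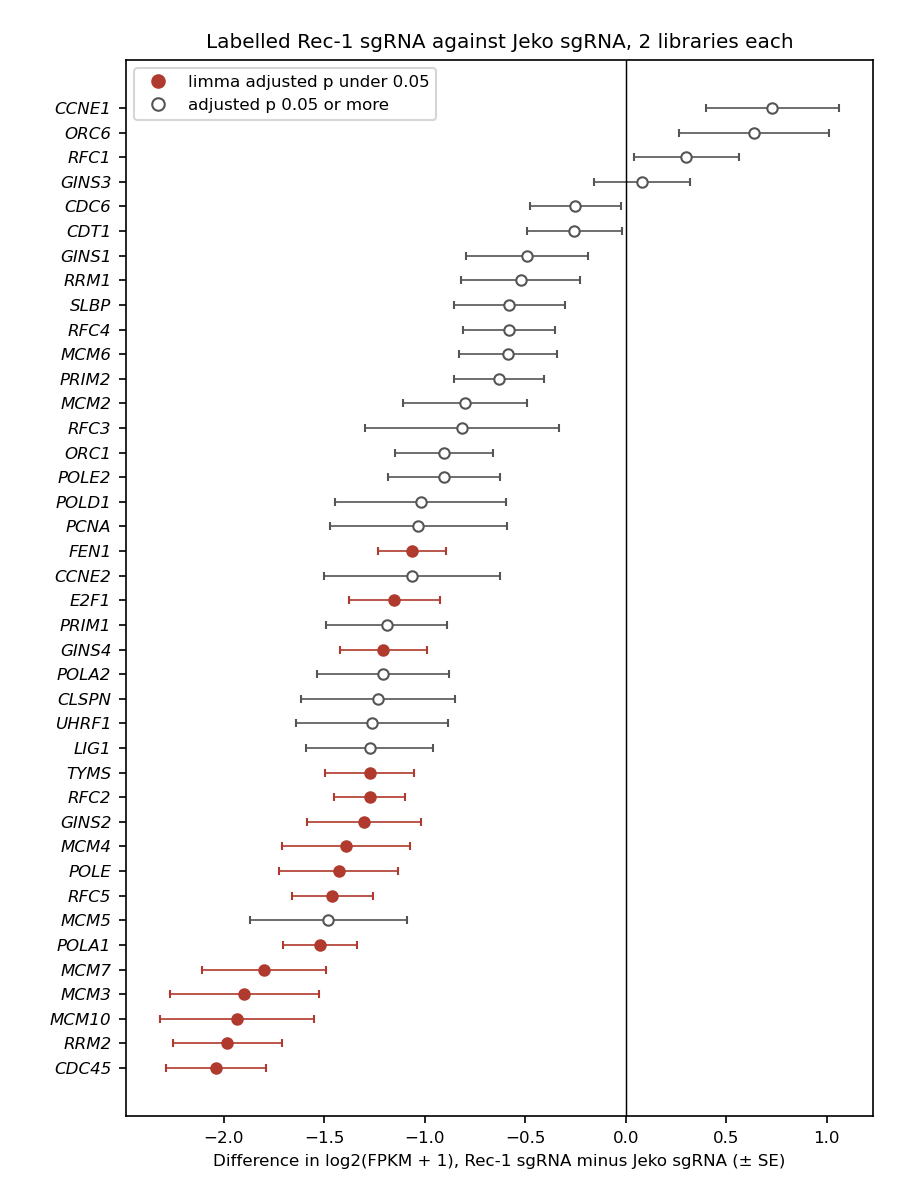
Difference in log2(FPKM + 1) between the 2 labelled Rec-1 sgRNA and the 2 Jeko sgRNA libraries for each of the 40 genes, with the limma standard error; filled points have an adjusted p under 0.05. All 15 filled points lie below 0, and CCNE1, ORC6, RFC1 and GINS3 are the 4 genes above 0.

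The E2F-type words shown above were about as common among the called as among the other replication genes: 7 of 13 called genes with a window (53.8%) and 13 of 23 others (56.5%). CDC45 and RFC2, with none, were among the called genes, and PCNA and MCM6, with the words, were not.

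Against the library labelled Rec-1 control, the 2 labelled Rec-1 sgRNA libraries had 6 of the 40 genes lower and 0 higher. Over all genes 9.11% were called lower and 10.0% higher, 19.2% in either direction. The median log2 difference was -0.81 for the 40 genes and 32 of 40 were lower with both guides (43.1% of all genes). RFC2 had the smallest adjusted p, at -2.15 (SE 0.22, adjusted p = 0.0102), followed by CDC45 at -2.51 (SE 0.31, adjusted p = 0.0151) and POLA1 at -1.38 (SE 0.22, adjusted p = 0.0277). RFC5 at -1.28 (adjusted p = 0.0388), E2F1 at -1.41 (adjusted p = 0.0408) and RRM2 at -1.56 (adjusted p = 0.0474) were the others. At a 2-fold limit with both guides, on the log2(FPKM + 1) scale, 13 of 40 were lower (11.4% of all genes), among them MCM3, MCM7, GINS2, MCM10, POLA2, PRIM1 and RFC4. CCNE1 was higher by 0.86 with sgRNA 1 and by 1.55 with sgRNA 2, without passing the test (adjusted p = 0.113). E2F1 and RRM2 lost their calls with a minimum mean of 5 FPKM (adjusted p = 0.0507 and 0.0578) and with no filter (0.0588 and 0.0758). The count was 0 without either labelled Rec-1 sgRNA library, and 2 without either Jeko sgRNA library, which here only adds to the estimate of the spread.

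The 2 control libraries were set against each other with no replicate. The level in the library labelled Rec-1 control was below that in the Jeko control for 38 of 40 replication genes (52.0% of all genes), with PRIM1 and RFC2 the exceptions. The differences were small: their median was -0.39 and their quartiles -0.53 and -0.28 on the log2 scale, against -0.01, -0.16 and 0.15 over all genes. The labelled Rec-1 control was also set against the mean of the 2 Jeko sgRNA and of the 2 labelled Rec-1 sgRNA libraries. By distance on the log2 scale it lay nearer to the Jeko sgRNA mean for 29 of 40 genes (68.6% of all genes).

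In Jeko, where all 3 libraries had CCND1, none of the 40 genes passed the test of both guides against the control (0.439% of all genes did). An unadjusted p under 0.05 was found for 3 of the 40 and for 1287 of all 11400 genes tested. The median difference was -0.12. The guides stood apart from each other: with sgRNA 1, 27 genes were higher and 13 lower than the control (median 0.13, 48.8% of all genes lower), whereas with sgRNA 2, 3 were higher and 37 lower (median -0.41, 49.2% of all genes lower). sgRNA 1 gave a higher level than sgRNA 2 for 36 of 40 genes (52.3% of all genes), all 11 helicase genes included, and the control lay between the guides for 24 of 40 (25.1%). MCM4, for example, was at 77.2 FPKM in the control, 116 with sgRNA 1 and 67.7 with sgRNA 2, and RFC3 was at 90.6, 111 and 49.9 FPKM. Both lay above the control with one guide and below it with the other. In the labelled Rec-1 libraries, sgRNA 1 was above sgRNA 2 for 15 of 40 genes (45.0%).

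Some genes differed from the Jeko control in the same direction with both guides. ORC6, RFC2, RFC4 and E2F1 were at least 1.5-fold lower with each guide (5.02% of all genes), and 0 of 40 were 2-fold lower with each (1.15%). RFC4, another loader subunit, was at 118, 72.3 and 53.4 FPKM in the control, sgRNA 1 and sgRNA 2. CDC6, RFC1 and FEN1 were higher with both guides (36.9% of all genes).

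**Figure D4:**
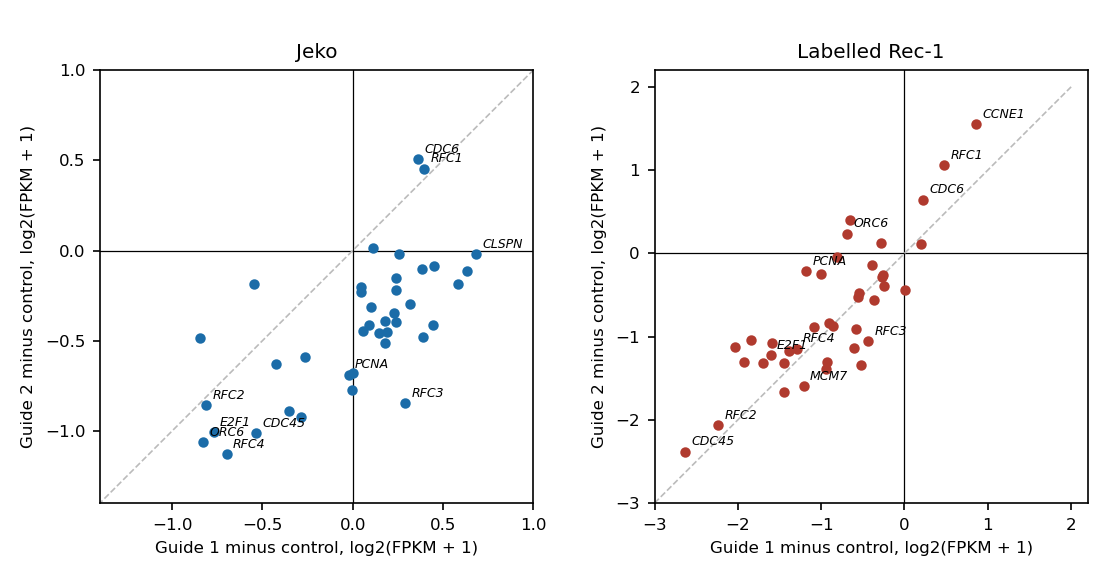
Difference from the line's own control in log2(FPKM + 1) with guide 1 (x axis) and guide 2 (y axis) for the 40 genes, Jeko left and labelled Rec-1 right, on different axis ranges; the dashed line marks equal differences. In Jeko most points lie below the dashed line, while CDC6 and RFC1 lie above 0 and RFC2, RFC4, E2F1, CDC45 and ORC6 below 0 with both guides.

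Transcript length moved with the Jeko differences. Over the 40 genes the Spearman correlation of length with the mean Jeko sgRNA difference was 0.57, and over 10316 protein-coding genes it was also 0.57. These are correlations across genes of the same 3 libraries and the genes are not replicates. The 20 genes with the shortest transcripts (1276 to 2690 nt) had a median of -0.14 with sgRNA 1 and -0.54 with sgRNA 2, and the 20 with the longest (3068 to 8512 nt) had 0.25 and -0.32. For the difference between the lines' sgRNA libraries the correlation was -0.19 over the 40 genes, with medians of -1.05 for the short and -1.22 for the long ones. In a fit adjusted for transcript length the median Jeko difference of the 40 genes was -0.10, against -0.12 without it, and 0 were called. ORC6, RFC2, RFC4 and E2F1, at least 1.5-fold lower with both Jeko guides, were among the 20 shortest. Of the genes higher with both, CDC6 (4564 nt) and RFC1 (4870 nt) were among the 20 longest, and FEN1 (2016 nt) was among the shortest. Across both lines the adjustment moved RFC1 from 0.60 to 0.44, CDC6 from 0.43 to 0.30 and RFC4 from -1.07 to -0.81. Whether length accounts for the differences of single genes in Jeko was not tested.

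**Figure D5:**
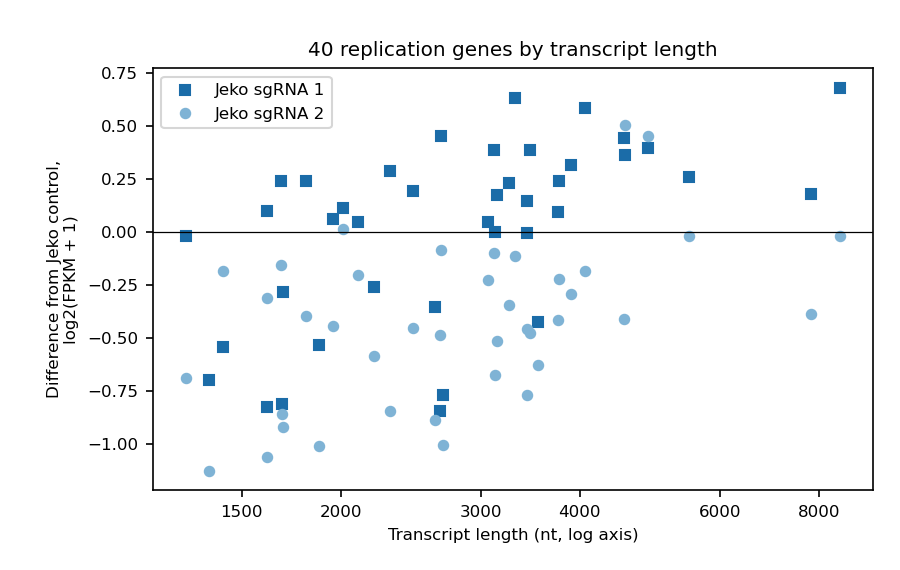
Difference of each Jeko sgRNA library from the Jeko control in log2(FPKM + 1) against transcript length on a log axis, 40 genes with 1 point per guide. Short transcripts lie lower than long ones with both guides, and the sgRNA 2 points lie below the sgRNA 1 points for 36 of 40 genes.

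Across both lines together, sgRNA against control with the line as a term, limma called 0 of 40 genes (0.246% of all genes were called). Of the 40, 10 had an unadjusted p under 0.05, as had 2410 of all 11400 genes tested. The median difference was -0.52 against 0.01 over all genes, with 35 negative and 5 positive. Without the Jeko control the median was -0.81, and without the labelled Rec-1 control it was -0.12. With 1 control left out, the sgRNA difference of this fit comes from the other line alone, so these medians repeat the contrasts within a line. Lower with every guide in both lines were 11 genes (21.1% of all genes): CDC45, GINS2, CDT1, POLA2, PRIM1, POLD1, POLE2, PCNA, RFC2, RFC4 and E2F1. Higher with every guide were CDC6 and RFC1 (21.0%). The smallest adjusted p, 0.169, was shared by RFC2 at -1.49 (SE 0.33), RFC4 at -1.07 (SE 0.21) and E2F1 at -1.15 (SE 0.23). CDC45 was at -1.64 (SE 0.43, adjusted p = 0.177).

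CDT1, which loads MCM2-7 and whose protein is destroyed in S phase, was at 70.6, 38.9 and 50.1 FPKM in the Jeko control, sgRNA 1 and sgRNA 2, and at 62.4, 41.5 and 32.7 FPKM in labelled Rec-1. Each control was above both sgRNA libraries of its line, with a difference of -0.71 (SE 0.21, adjusted p = 0.195). Its partner CDC6 was at 39.6, 51.1 and 56.6 FPKM in Jeko and at 33.1, 38.8 and 52.3 FPKM in labelled Rec-1. Each control was the lowest library of its line, with a difference of 0.43 (SE 0.20, adjusted p = 0.262). RFC1 was at 0.60 (SE 0.24, adjusted p = 0.234).

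An interaction contrast set the labelled Rec-1 difference between sgRNA and control libraries against that of Jeko. Because the labelled Rec-1 control has CCND1 and its sgRNA libraries do not, this contrast cannot tell a different response from a line difference. It called 0 of 40 genes, against 6.94% of all genes. At an unadjusted p under 0.05 were 5 of the 40 and 2498 of all 11400 genes tested. POLA1 was at -1.498 (SE 0.32, adjusted p = 0.0887), RFC2 at -1.31 (adjusted p = 0.107) and CDC45 at -1.73 (adjusted p = 0.120). Guide 2 against guide 1 over both lines called 0 of 40 (0.0175% of all genes). There 2 of the 40 and 256 of all 11400 genes had an unadjusted p under 0.05. The 2 were RFC3 at -0.88 and POLD1 at -0.80, both with an adjusted p of 1.

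Related genes outside the 40 were read from fixed lists. Of 41 other replication genes, 11 were lower and 1 was higher in the labelled Rec-1 than in the Jeko sgRNA libraries (median -0.73). Over all genes 13.0% were called lower and 12.8% higher in that contrast. TK1, the salvage thymidine kinase, was at 186, 124 and 109 FPKM in the Jeko control, sgRNA 1 and sgRNA 2, and at 134, 32.0 and 37.4 FPKM in labelled Rec-1. Its sgRNA groups did not overlap and it fell by 1.72 (adjusted p = 0.00973). The fork protein TIMELESS fell by 1.86 and the maintenance methyltransferase DNMT1 fell by 1.22, and the polymerase delta subunit POLD4 was the gene that rose (2.70, adjusted p = 0.0400). Of 14 other G1/S regulators 7 were lower and 0 higher (median -0.72): E2F2, E2F3, E2F7, E2F8, MYBL2, RBL1 and RBL2.

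Of the 30 mitosis genes, 2 were lower and 1 higher in that contrast (median -0.23), against 13.0% and 12.8% of all genes. BUB1, a spindle checkpoint kinase, was lower by 2.32 (adjusted p = 0.0137) and the proliferation marker MKI67 by 1.01 (adjusted p = 0.0342). UBE2C, which works with the anaphase promoting complex, was higher by 1.16 (adjusted p = 0.0238). In the Jeko contrast and in both lines together these lists had 0 calls.

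Some of the 40 genes share transcribed sequence with neighbours, and the strand setting of the counting is not given in the sources used here. TYMS overlaps ENOSF1 on the opposite strand over 60.0% of its transcript, and CCNE2 overlaps INTS8 over 56.9%. ENOSF1 was at 56.4, 44.1 and 30.3 FPKM in Jeko and at 36.1, 14.7 and 18.7 FPKM in labelled Rec-1. PCNA-AS1, by name an antisense RNA of PCNA, was at 475.5, 414.3 and 342.8 FPKM in Jeko and at 294.6, 174.0 and 221.8 FPKM in labelled Rec-1. GINS4 and MCM2 overlap noncoding genes on the opposite strand over 30.4% and 32.4% of their transcripts. PRIM2 overlaps a pseudogene over 38.0% of its transcript, POLA2 a readthrough transcript over 55.8%, and PCNA and RRM2 each have 3 pseudogenes by name. The values of these genes are uncertain to that degree. MCM7 hosts a cluster of microRNA genes in an intron, of which MIR25 was listed at 712, 175 and 92.2 FPKM in Jeko and at 185, 0 and 0 FPKM in labelled Rec-1, and reads of host and hairpin cannot be told apart in this table.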

How the data were processed

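The authors deposited 1 table of FPKM values for 25277 genes in 6 libraries, per the file headers, and the submitters' processing notes name TopHat and the hg19 build. The library kit was Illumina TruSeq RNA, per the labels' protocols, and counts or depth per library were not used here. The 40 genes and the comparison lists were chosen with earlier results of these data known. The 11400 genes whose mean reached 1 FPKM were tested on log2(FPKM + 1) with limma 3.58.1 in R 4.3.3, with Benjamini-Hochberg adjustment over all of them and a threshold of 0.05. Counts of order, such as lower with every guide, were made over 11399 gene symbols. Fold changes on this scale understate those of low genes. A fit with 4 groups of line and treatment (2 residual degrees of freedom) gave the contrasts within and between lines. Its spread comes from the sgRNA pairs, so each lone control is assumed to vary like them. A fit with line as a covariate (3 degrees of freedom) gave the contrast over both lines. The code was tested on simulated data. Genes described by name were those called in a line contrast, those with 1 direction in all 4 sgRNA differences ranked by the smallest of them, and the members of each role. Coordinates and transcript lengths are from GENCODE on GRCh37, matched by symbol for all 40. Alternatives were the pseudocount, the filter, the gene set, a length adjustment, the fold limit and leaving out each library.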

Additional observations from a re-analysis of the deposited data

Results flagged for a closer look

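FEN1, the flap endonuclease of lagging strand processing, was flagged because the sgRNA libraries lay on opposite sides of the control in Jeko and in labelled Rec-1. It was at 92.4 FPKM in the Jeko control, 100.1 with sgRNA 1 and 93.2 with sgRNA 2, and at 67.0, 45.3 and 46.2 FPKM in the labelled Rec-1 libraries in that order. Both Jeko guides were therefore above their control, by 0.11 and 0.01 on the log2 scale, and both labelled Rec-1 guides below theirs, at -0.56 and -0.53. The interaction was -0.60 (SE 0.29) and did not pass in limma (adjusted p = 0.330). Of all genes, 10.8% had this pattern, and it was the only 1 of the 40 genes that did.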

How the results depend on the processing

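The direction of the median held for the contrasts of both lines, of the labelled Rec-1 libraries, between the lines and for the interaction under every alternative run. It reversed to 0.13 for Jeko without Jeko sgRNA 2 and to 0.20 for guide 2 against guide 1 without Jeko sgRNA 1. For the labelled Rec-1 sgRNA libraries against their control, the median of -0.81 became -0.89 with a pseudocount of 0.1. It was -0.87 with a mean of at least 5 FPKM and -0.74 after adjustment for transcript length. The 6 calls became 4 with a mean of at least 5 FPKM or no filter, and 7 after the length adjustment. They became 9 with median scaling and 12 over protein-coding genes only. Calls over all genes moved too, from 2184 to 1083 with a mean of at least 5 FPKM and 2313 with no filter. They were 2436 with median scaling and 2709 over protein-coding genes only. Counts of the 40 alone, here and below, therefore do not show a change relative to all genes. Between the lines' sgRNA libraries the 15 calls became 7 with no filter, 23 over protein-coding genes only and 0 when the line contrast took all 6 libraries (27 genes at an unadjusted p under 0.05, with 5 calls over all genes). At 1.5-fold in place of 2-fold, 4 genes in Jeko passed with both guides, all lower, against 0. Over all genes 5.02% were lower and 6.32% higher in Jeko at 1.5-fold. In labelled Rec-1, 20 passed, 19 lower and CCNE1 higher, against 13, all lower. The shares of all genes there were 20.1% lower and 20.3% higher at 1.5-fold, and 11.4% and 11.9% at 2-fold. Leaving out 1 library at a time gave medians of -0.81 to -0.12 for both lines together. The first was without the Jeko control and the last without the labelled Rec-1 control, so each of these came from 1 line alone. The ranges were 0 to 0 calls and -0.41 to 0.13 for Jeko, 0 to 7 calls and -0.88 to -0.81 for labelled Rec-1, and 0 to 16 calls and -1.32 to -0.91 between the lines. They were 0 to 0 calls and -0.89 to -0.34 for the interaction, and 0 to 0 calls and -0.57 to 0.20 between guides. With an sgRNA library left out the fit has fewer samples and 1 residual degree of freedom; the other causes were not tested. The number names the guide, the same in both lines, and no label says that same-numbered libraries share a batch or day. Their deviations correlated at 0.0998 over all genes, 0.208 over protein-coding genes and 0.325 over the 40 genes. A fit that took this number as replicate block gave 0 calls for both lines together (11 genes at an unadjusted p under 0.05), 0 for Jeko, 7 for labelled Rec-1, 15 between the lines and 0 for the interaction. With this block RFC5 (adjusted p = 0.0617) and E2F1 (0.0630) were no longer called against the labelled Rec-1 control, nor, among the genes followed singly, E2F1 (0.0548) and MCM10 (0.0532) between the lines. Of the values for single genes, 236 kept their side of the threshold, 92 lost it and 3 gained it. Those that kept their side include the genes followed over both lines, which had no call to lose. The gains were all in that contrast without the Jeko control, where its difference comes from the labelled Rec-1 libraries alone. Depth is unknown and limits low genes such as CLSPN most.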
